A study of Homo sapiens with 6 samples.

Results

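The 10 enzymes described here make or salvage purine nucleotides: PPAT, GART, PFAS, PAICS, ADSL and ATIC of de novo synthesis, IMPDH1, IMPDH2 and GMPS of the guanine branch, and HPRT1 of salvage. They were taken by gene symbol from a table of read counts for 19470 genes, and 10 of the 10 symbols were present and passed the filter on low counts. The libraries came from HCCC9810, an established human cholangiocarcinoma (CCA) cell line labelled wild type, treated for 24 h with 20 μM isolinderalactone (ILL), a plant sesquiterpene lactone, or with vehicle (DMSO) as the control. Each group held 3 libraries. The labels do not say that the libraries of a group came from separate cultures, so p-values measure the spread between these libraries, which may be technical, in 1 cell line at 1 dose and 1 time.

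Purine rings are built on phosphoribosyl pyrophosphate (PRPP) in a linear series of steps that ends in inosine monophosphate (IMP), and several of the enzymes carry more than 1 activity on the same polypeptide. IMP then feeds either AMP or, through IMP dehydrogenase and GMP synthetase, GMP. Cells can also recover free bases, and HPRT1 joins hypoxanthine or guanine to PRPP to give IMP or GMP in a single step. Growing cells use both routes to supply RNA, DNA and the energy and signaling nucleotides.

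Total counts ranged from 34282764 to 37758569 per library, 13066 genes were tested, and the median log2 fold change over them was -0.00117. The keratin genes KRT7, KRT8, KRT18 and KRT19, with EPCAM and SOX9, were read in every library. CPM are read counts scaled to the size of the library, and each of these genes had a mean of at least 44.7 CPM in both groups, as in biliary epithelium. CFTR, also a biliary marker, was at 0 in every library. The summed level of the 8 biliary markers was 8805 to 9034 CPM in controls and 8524 to 9016 CPM with ILL. Summed levels reached at most 12.1 CPM in controls and 26.3 CPM with ILL for 5 hepatocyte genes, 14.1 and 18.4 CPM for 5 fibroblast genes, and 1.65 and 1.91 CPM for 3 endothelial genes. For 4 leukocyte genes the sums were 37.3 to 41.6 and 113 to 119 CPM, of which CD68, a lysosomal protein gene, made up 37.8 and 113 CPM on average, while CD3E averaged 0 and 0.0286 CPM and PTPRC 0.00943 and 0.0952 CPM.

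All of these purine enzyme mRNAs fell with ILL. At an adjusted p under 0.05 (edgeR quasi-likelihood test, Benjamini-Hochberg over all tested genes), 10 of 10 were lower and 0 were higher, where 36.9% of all tested genes were lower and 36.2% higher. With a fold change of more than 2 as well, 7 were lower, where 11.4% of all tested genes were lower and 12.5% higher, and the exceptions were GART, ADSL and IMPDH1. In 10 of 10 every ILL library lay below every control library, which held for 38.0% of all tested genes, with 37.5% the other way round. The log2 fold changes ran from -2.34 to -0.58, with a median of -1.45. Summed over the 10 enzymes, 1614 to 1632 CPM in controls became 625 to 635 CPM with ILL. In RNA from whole cultures, fewer cells that express a gene and less RNA per cell cannot be told apart.

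**Figure D1:**
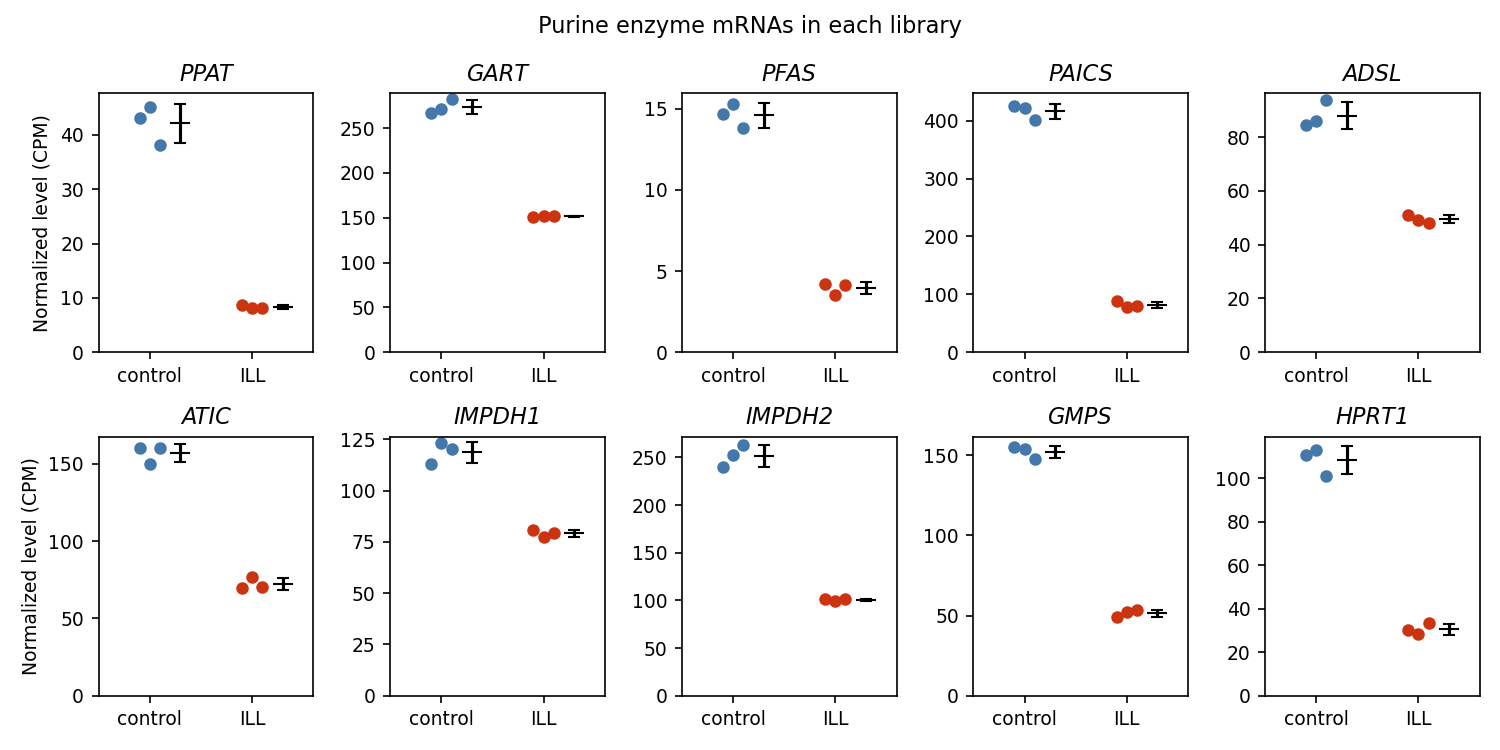
Level of each enzyme mRNA in CPM (vertical axis from 0, a separate scale for each gene) in the 3 control and the 3 ILL libraries, with points for libraries and the bar beside them for the mean ± SD. In every panel the ILL points lie below the control points, and the SD is at most 9.47% of the mean.

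The first committed step is catalysed by PPAT, which transfers an amide nitrogen from glutamine to PRPP and is inhibited by the end products of the pathway. PPAT was read at 43.2, 45.1 and 38.1 CPM in control libraries and at 8.68, 8.05 and 8.18 CPM with ILL. Means were 42.1 ± 3.58 CPM (SD, n = 3) and 8.30 ± 0.335 CPM (SD, n = 3), so the gap between groups was several times the spread within either. PPAT had a log2 fold change of -2.34 with a standard error (SE) of 0.09 (edgeR adjusted p = 2.9e-17), which left 19.7% of the control level.

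PAICS, which carries out the carboxylation and the aspartate addition in the middle of the pathway, started from far more reads and fell by as much. Its level was 426, 422 and 402 CPM in control libraries and 88.1, 77.7 and 80.3 CPM with ILL. The log2 fold change was -2.34 (SE 0.06, edgeR adjusted p = 3.3e-21), again 19.7% of the control level. PPAT and PAICS ranked close together, with 2.39% and 2.37% of all tested genes at or below their log2 fold changes.

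PPAT and PAICS are divergent neighbours on chromosome 4. In GENCODE release 29 on GRCh38, PPAT lies on the minus strand at chr4:56393362-56435615 and PAICS on the plus strand at chr4:56435741-56464579. RefSeq (GRCh38.p14) places the PPAT start at 56435615 and a PAICS start at 56435752, 137 bases apart. It lists further PAICS starts at 56410507 and 56436260, and the start nearest to PPAT is used here. The stretch between both starts, chr4:56435616-56435751, and a short one inside the PAICS transcript, chr4:56435780-56435801, are shown because a single piece of DNA flanks the pair with the largest falls. Both read 5′ to 3′ on the plus strand, and capitals mark GC boxes (GGGCGG) in the first and an E-box (CACGTG), the binding motif of MYC and related factors, in the second.
PPAT to PAICS interval: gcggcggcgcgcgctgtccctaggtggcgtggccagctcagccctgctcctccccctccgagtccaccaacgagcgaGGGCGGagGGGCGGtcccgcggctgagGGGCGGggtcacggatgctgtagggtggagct
PPAT and PAICS E-box: ctgtatttgctgCACGTGgaaa

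The interval holds 3 GC boxes. The E-box at 56435792 to 56435797 starts at base 41 of the PAICS transcript, upstream of PPAT, and lies inside the windows of both genes, so that their matches are 1 site. Of the 10 enzymes, 8 were matched in the RefSeq windows, which run from 250 bases before to 50 bases after each start; ADSL and IMPDH2 were not. An E-box was in the windows of 3 of these 8, PPAT, PAICS and ATIC, and in 7.26% of all 35116 windows and for 8.77% of all 27305 genes. GC boxes were in the windows of 8 of 8, and of 48.3% of all genes. The other motifs searched, on both strands, were CCAAT (GART only, 39.7% of genes), the E2F forms TTTGGCGC (GART only, 0.795% of genes) and TTTCGCGC (0 of 8), the cAMP response element TGACGTCA (0 of 8), the ATF4 form TGATGCAA (0 of 8) and the variant E-box CACGCG (PFAS only, 13.5% of genes).

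**Figure D2:**
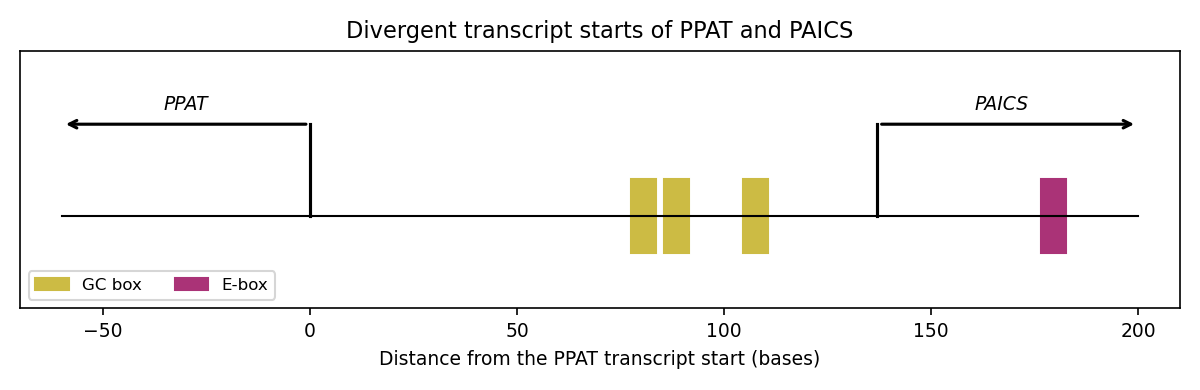
Map of the stretch around the divergent transcript starts, in bases from the PPAT start (horizontal axis), with arrows for the direction of transcription and boxes for the motif letters. The PAICS start lies at 137 bases, the 3 GC boxes between both starts and the E-box beyond the PAICS start.

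The ratio of PAICS to PPAT counts within a library needs no scaling between libraries. On the log2 scale it was 3.30, 3.23 and 3.40 in control libraries and 3.34, 3.27 and 3.30 with ILL. The groups overlapped, and the mean difference was -0.01 (exact permutation test over 20 arrangements, two-sided p = 0.9, adjusted 0.90 over 10 ratios). Without control replicate 3 the difference was 0.04 and without ILL replicate 2 it was 0.01, so its sign was not fixed. Leaving out each library in turn, it ran from -0.05 to 0.04, beside log2 fold changes of -2.34 in both genes.

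PFAS (chr17:8247618-8270491, plus strand) and GART (chr21:33503931-33543491, minus strand) act between PPAT and PAICS. PFAS, which adds a further nitrogen from glutamine, was the scarcest of the enzymes, with 570, 538 and 489 reads in control libraries and 147, 121 and 144 with ILL. That corresponds to 14.7, 15.3 and 13.8 CPM and to 4.20, 3.52 and 4.12 CPM. PFAS fell by 1.89 on the log2 scale (SE 0.13, the widest of the 10, edgeR adjusted p = 4.2e-12), to 27.0% of control. With limma on log2(FPKM + 1), where FPKM are fragments scaled by gene length and library total, the PFAS value was -1.10, and it was -1.81 with 0.1 added in place of 1.

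GART, a trifunctional enzyme whose formyl transfer uses 10-formyltetrahydrofolate, was among the less affected. It was read at 267, 271 and 282 CPM in control libraries and at 151, 152 and 152 CPM with ILL. GART fell by 0.84 on the log2 scale (SE 0.05, edgeR adjusted p = 1.2e-13) and kept 55.7% of the control level, short of the 2-fold cutoff. Its exons share 275 bases, 3.55% of the gene, with SON on the opposite strand, and whether counting used strand is not stated in the sources used here.

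ADSL (chr22:40346500-40390463, plus strand) and ATIC complete IMP. ADSL, which releases fumarate here and again on the way to AMP, was at 84.4, 85.9 and 94.0 CPM in control libraries and at 51.0, 49.3 and 48.2 CPM with ILL. The ADSL log2 fold change of -0.83 (SE 0.06, edgeR adjusted p = 1.3e-11) was close to that of GART. The ratio of GART to ADSL differed between groups by -0.01 on the log2 scale, and the groups overlapped (exact permutation p = 0.7, adjusted 0.78 over 10 ratios). Both were paired as neighbours in the order of falls in the same libraries, so the ratio is a description and not a test. ADSL shares 1344 exonic bases, 18.9% of the gene, with the annotated gene AL022238.4 on the same strand, so part of its reads could be ambiguous.

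ATIC, which adds the last formyl group and closes the ring, fell by 1.12 on the log2 scale (SE 0.06, edgeR adjusted p = 9.1e-15). Its libraries read 160.0, 150.1 and 160.2 CPM in controls and 69.8, 77.0 and 70.1 CPM with ILL, or 46.1% of control. ATIC lies at chr2:215311817-215349773 on the plus strand, and its RefSeq window holds E-boxes that start 46 bases before the transcript start and at base 30 of the transcript. The upstream one is shown as it stands at chr2:215312001-215312030, plus strand, for comparison with the PPAT and PAICS site, with the E-box in capitals.
ATIC E-box: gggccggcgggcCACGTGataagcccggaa

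Summed per length, the 6 enzymes of IMP synthesis gave 257, 253 and 253 FPKM in control libraries and 93.5, 92.2 and 90.7 FPKM with ILL, or 36.2% of control. The falls were unequal along the pathway. PPAT and PAICS lost the most, PFAS was between, and GART and ADSL lost the least. The guanine branch summed to 205, 215 and 218 FPKM in control libraries and to 93.1, 89.6 and 92.2 FPKM with ILL, or 43.1% of control.

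IMPDH1 and IMPDH2 are isozymes that oxidize IMP to XMP, the rate-limiting step toward GMP, and IMPDH2 is known as the form that increases in dividing and transformed cells. IMPDH1 lies at chr7:128392277-128410252 and IMPDH2 at chr3:49024325-49029408, both on the minus strand. IMPDH2 was at 240.0, 252 and 263 CPM in control libraries and at 101, 98.8 and 101 CPM with ILL. IMPDH1 was at 113, 123 and 120.1 CPM in control libraries and at 81.0, 77.5 and 79.1 CPM with ILL. IMPDH2 fell by 1.32 (SE 0.05, edgeR adjusted p = 5.6e-17) and IMPDH1 by 0.58 on the log2 scale (SE 0.06, edgeR adjusted p = 1.6e-09). IMPDH1 therefore kept 66.8% of control, the most of the 10 enzymes, and IMPDH2 39.9%.

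The balance of the isozymes shifted in every library. The log2 ratio of IMPDH2 to IMPDH1 counts was 1.09, 1.04 and 1.13 in control libraries and 0.33, 0.35 and 0.36 with ILL. Means were 1.09 ± 0.04 (SD, n = 3) and 0.34 ± 0.02 (SD, n = 3), a difference of -0.74 (exact permutation test, two-sided p = 0.1, adjusted 0.14 over 10 ratios). With 3 libraries against 3 the smallest p this test can give is 0.1. Leaving out each library in turn, the difference stayed between -0.77 and -0.72. By gene name, GENCODE holds 7 pseudogenes of IMPDH1 and 0 of IMPDH2, besides 7 of PAICS, 3 of HPRT1, 2 of PPAT and 1 of GMPS. None of these pseudogenes has a row of its own in the count table. How reads that match several places were treated is not stated in the sources used here.

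**Figure D3:**
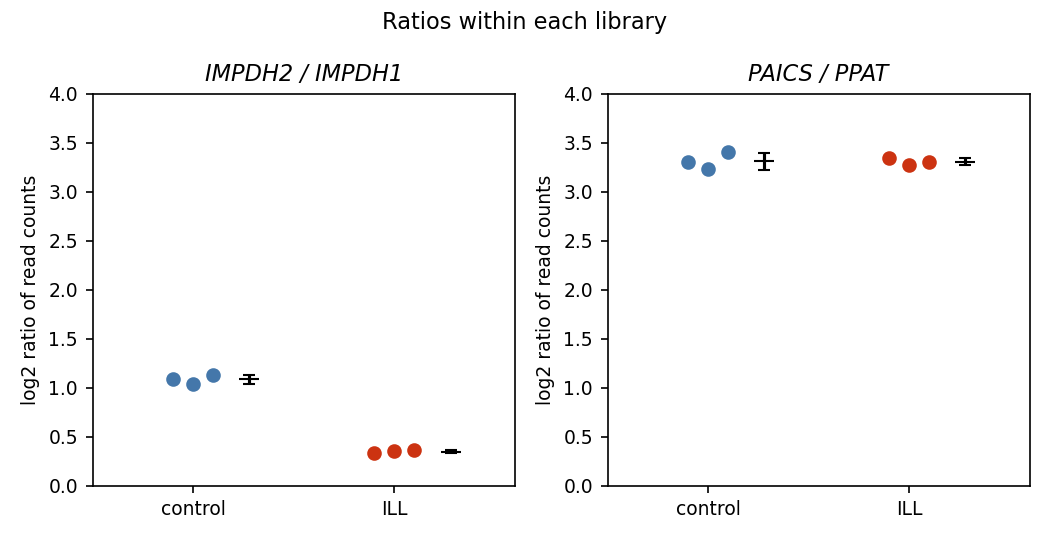
Log2 ratio of read counts within each library (vertical axes, same range) for IMPDH2 over IMPDH1 and for PAICS over PPAT, with points for libraries and the bar for mean ± SD. The IMPDH2 to IMPDH1 points drop from between 1.04 and 1.13 to between 0.33 and 0.36, while the PAICS to PPAT points overlap.

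GMPS (chr3:155870536-155944026, plus strand), which aminates XMP to GMP, fell more than either IMP dehydrogenase. Its level was 155, 154 and 148 CPM in control libraries and 48.8, 52.1 and 53.3 CPM with ILL. The log2 fold change was -1.57 (SE 0.06, edgeR adjusted p = 9.0e-18), leaving 33.7% of control. The ratio of GMPS to IMPDH2 counts was lower in every ILL library than in every control library, by 0.25 on average on the log2 scale (value -0.25, exact permutation p = 0.1, the smallest possible).

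HPRT1 (chrX:134460153-134520513, plus strand), the salvage enzyme whose loss causes Lesch-Nyhan syndrome, fell with the biosynthetic enzymes. HPRT1 was read at 111, 113 and 101 CPM in control libraries and at 30.1, 28.4 and 33.4 CPM with ILL. It fell by 1.82 on the log2 scale (SE 0.07, edgeR adjusted p = 1.8e-17), to 28.2% of control. The mRNAs of the enzymes that salvage adenine and adenosine moved less. APRT, which salvages adenine, fell by 0.34 (SE 0.06, edgeR adjusted p = 7.7e-06) and ADK, adenosine kinase, by 0.66 on the log2 scale. HPRT1 is often used as a reference gene in quantitative PCR, and in these libraries it was 3.54-fold lower with ILL.

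**Figure D4:**
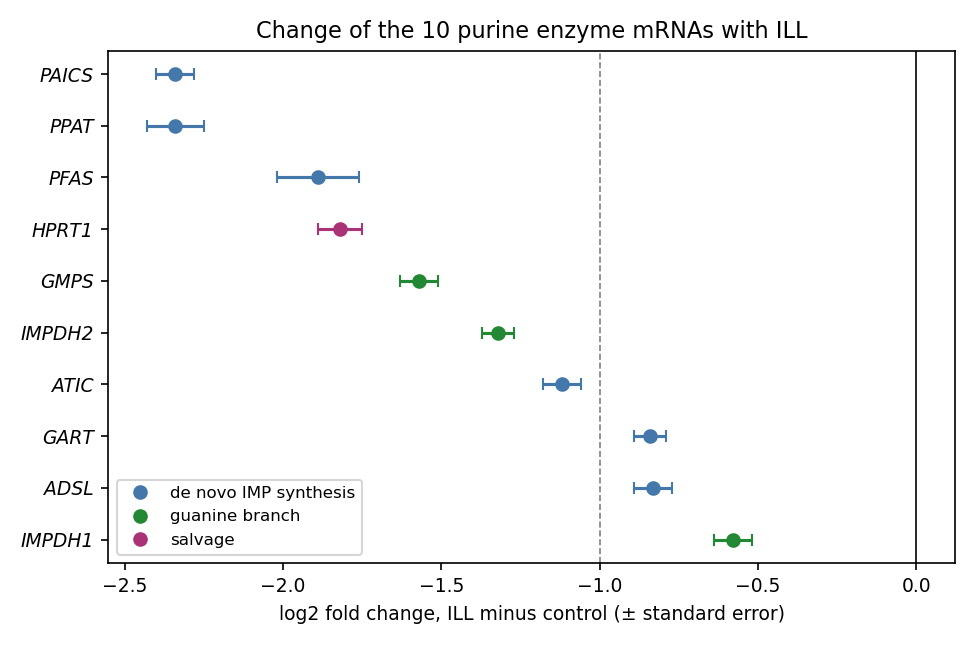
Log2 fold change, ILL minus control, of each enzyme mRNA with its standard error (horizontal axis), coloured by role, with a dashed line at -1. PAICS and PPAT lie lowest at -2.34, while GART, ADSL and IMPDH1 lie above the dashed line at -0.84, -0.83 and -0.58.

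Ordered by their fall, the enzymes ran PAICS, PPAT, PFAS, HPRT1, GMPS, IMPDH2, ATIC, GART, ADSL and IMPDH1. Counts of neighbours in this order were set against each other within libraries, which needs no scaling. The ratios of PAICS to PPAT, PFAS to HPRT1 and GART to ADSL overlapped between groups, so the order within these pairs was not resolved. For the PFAS to HPRT1 ratio the difference was -0.07 (exact permutation p = 0.4, adjusted 0.50 over 10 ratios). In the other 6 neighbouring pairs the groups did not overlap, with differences from -0.45 to -0.21 on the log2 scale. As the order was read from the same libraries, these values describe it and do not test it.

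Levels also changed order when compared per length. Mean FPKM in controls was highest for IMPDH2 at 149.6, followed by PAICS at 95.8, HPRT1 at 79.7, GART at 63.2, ATIC at 58.5 and IMPDH1 at 45.7. ADSL at 22.5, GMPS at 17.4, PPAT at 11.7 and PFAS at 2.54 FPKM made up the lower end. With ILL, IMPDH2 stayed first at 57.0 FPKM, and GART at 33.5, IMPDH1 at 29.1 and ATIC at 25.7 FPKM came next. HPRT1 at 21.4 and PAICS at 18.0 FPKM moved behind them, ahead of ADSL at 12.0, GMPS at 5.58, PPAT at 2.20 and PFAS at 0.654 FPKM. In both groups the ranges of neighbours in this order did not overlap. These FPKM values depend on the gene lengths the authors used, which are not listed in their table.

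Among 9224 genes with at least 10 CPM on average, the profiles closest to PPAT over the 6 libraries, by root mean square distance of log2 CPM from the control mean, were MCM8 (distance 0.052, log2 fold change -2.38), SUV39H2 (0.061, -2.30) and BORA (0.071, -2.26). For IMPDH2 they were TRAP1 (0.027, -1.32), FKBP4 (0.036, -1.35) and NRG1 (0.036, -1.32). With 6 libraries in 2 groups, such distances mostly compare fold changes.

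Upstream of PPAT, 2 of 4 tested genes of PRPP supply fell and 0 rose, where 36.9% of all tested genes fell and 36.2% rose. The PRPP synthetases PRPS1, at 31.7 ± 0.700 against 9.76 ± 1.07 CPM (SD, n = 3), and PRPS2, at 104 ± 3.63 against 53.2 ± 1.29 CPM (SD, n = 3), had log2 fold changes of -1.70 (edgeR adjusted p = 5.4e-14) and -0.97 (1.9e-13). Their associated proteins did not pass the test, with -0.02 for PRPSAP1 and -0.22 for PRPSAP2. PRPSAP2 passed without ILL replicate 1, at -0.28 (edgeR adjusted p = 0.0346), and with library size only, at -0.29. In the adenine branch and other salvage, 3 of 4 fell, namely ADK, APRT and ADSS2, the adenylosuccinate synthetase of most tissues, and the list's median was -0.25. The fall of ADSS2, at -0.16, did not pass without control replicate 1 (-0.14) or ILL replicate 2 (-0.12).

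Of 9 kinases that phosphorylate purine mono- and diphosphates, 8 were tested, 5 fell and 1 rose, where 36.9% of all tested genes fell and 36.2% rose. NME1, a nucleoside diphosphate kinase that feeds GTP and dGTP, was lower at -1.34 and AK4, a mitochondrial adenylate kinase, at -0.98. NME2, a close relative of NME1, had few reads, 76, 66 and 95 in control libraries and 42, 49 and 43 with ILL. The call of NME2 was lost without control replicate 3 (-0.58), ILL replicate 1 (-0.71) or ILL replicate 3 (-0.73). It was also lost with the replicate numbers as a block (-0.74, edgeR adjusted p = 0.0606). The gene that rose, AK3, did so by 0.18 with overlapping groups, and its call was lost without control replicate 1 (0.19), control replicate 3 (0.14) or ILL replicate 3 (0.09).

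Interconversion and breakdown was split, with 6 of 14 tested genes higher, 6 lower and a median of -0.03, shares near the 36.2% higher and 36.9% lower of all tested genes. PNP, which splits inosine and guanosine into the bases that HPRT1 uses, fell by 1.47 on the log2 scale from 168, 169 and 184 CPM to 63.2, 62.8 and 61.6 CPM. ADA, which deaminates adenosine, had a log2 fold change of -1.22. AMPD3, an AMP deaminase that returns AMP to IMP, rose by 1.39 on the log2 scale, from 15.0, 14.2 and 16.5 CPM to 38.9, 39.6 and 41.0 CPM. AMPD2, also an AMP deaminase, went the other way, from a mean of 36.6 CPM in controls to 22.7 CPM with ILL. Its log2 fold change was -0.69 (edgeR adjusted p = 2.0e-08). GMPR, which returns GMP to IMP, rose by 2.73 (SE 0.52) from 15, 2 and 9 reads to 45, 68 and 52 reads, and by 0.76 with limma on log2(FPKM + 1). Its mean was only 0.233 CPM in controls and 1.58 CPM with ILL. GMPR2, the other GMP reductase of the list, was far more abundant, at 74.6 and 76.3 CPM. It did not pass the test (log2 fold change 0.03, edgeR adjusted p = 0.64).

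The formyl groups that GART and ATIC use come from 10-formyltetrahydrofolate, and its enzymes moved both ways: of 11 tested, 5 rose and 5 fell, with a median of -0.79. These shares are near those of all tested genes, 36.2% higher and 36.9% lower. MTHFD1, the cytosolic trifunctional enzyme that makes this cofactor, was at 202, 207 and 219 CPM in control libraries and at 57.0, 61.0 and 55.1 CPM with ILL. Its log2 fold change was -1.86 (SE 0.06, edgeR adjusted p = 4.3e-19). ALDH1L2, a mitochondrial enzyme that oxidizes the same cofactor, was at 9.22, 9.65 and 7.58 CPM in controls and at 112, 107 and 111 CPM with ILL, a log2 fold change of 3.64 (SE 0.08, edgeR adjusted p = 6.3e-22). Its cytosolic relative ALDH1L1 rose by 1.91. The mitochondrial enzymes MTHFD2, at 1.61, and SHMT2, at 0.66, rose as well. Other mitochondrial members of the list fell, with log2 fold changes of -1.14 for MTHFD2L and -0.98 for the folate carrier SLC25A32, as did the cytosolic SHMT1 at -0.79. These 5 genes were named after their values were seen.

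Pyrimidine synthesis and salvage, set beside the purine enzymes as the parallel route, had 9 of 9 tested genes lower, 6 of them by more than 2-fold. Of all tested genes, 36.9% were lower and 11.4% lower by more than 2-fold. The list's median was -1.21. TYMS, thymidylate synthase, was lowest at -3.33 and UCK2, uridine-cytidine kinase, followed at -1.80. The smallest fall, of CMPK1 at -0.18, did not pass without control replicate 1 (-0.16), control replicate 2 (-0.13), ILL replicate 1 (-0.16) or ILL replicate 2 (-0.11).

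Factors known to act on purine genes were also measured as mRNA, and 1 of 6 rose, 3 fell and 2 did not pass the test. Of all tested genes, 36.2% rose and 36.9% fell. ATF4, which activates MTHFD2 and other amino acid and folate genes under stress, rose from 280.3, 266 and 278 CPM to 879, 925 and 954 CPM, a log2 fold change of 1.74 (SE 0.05, edgeR adjusted p = 7.9e-20). MYC, a direct activator of several purine genes, was at 103, 95.2 and 108 CPM in controls and at 61.9, 71.6 and 74.4 CPM with ILL, a log2 fold change of -0.56 (SE 0.07, edgeR adjusted p = 7.1e-08). MYCN was lower at -1.70 from a mean of 3.21 CPM, or -0.71 with limma on log2(FPKM + 1), and the remaining genes, MYCL at 0.57 and MAX at 0.13, did not pass. MYCL passed without control replicate 2 (0.82) and MAX without ILL replicate 1 (0.20). E2F1, an S phase transcription factor, fell from 129.6, 136 and 125 CPM to 25.8, 30.3 and 31.5 CPM, at -2.15. Their mRNA levels do not measure binding at the purine genes.

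Proliferation markers moved with the purine enzymes. Of 9, 9 passed the test and fell by more than 2-fold, where 11.4% of all tested genes did. Their median was -3.08, with a range of -3.55 to -2.08. Their summed level went from 2595 to 2706 CPM in controls to 317 to 335 CPM with ILL. TOP2A and CCNA2 were lowest, at -3.55 and -3.29. The largest falls among the purine enzymes, -2.34 for PPAT and PAICS, lay within the range of these markers, and the other 8 enzymes fell less than any of them. The part of proliferation in the purine result was not tested.

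**Figure D5:**
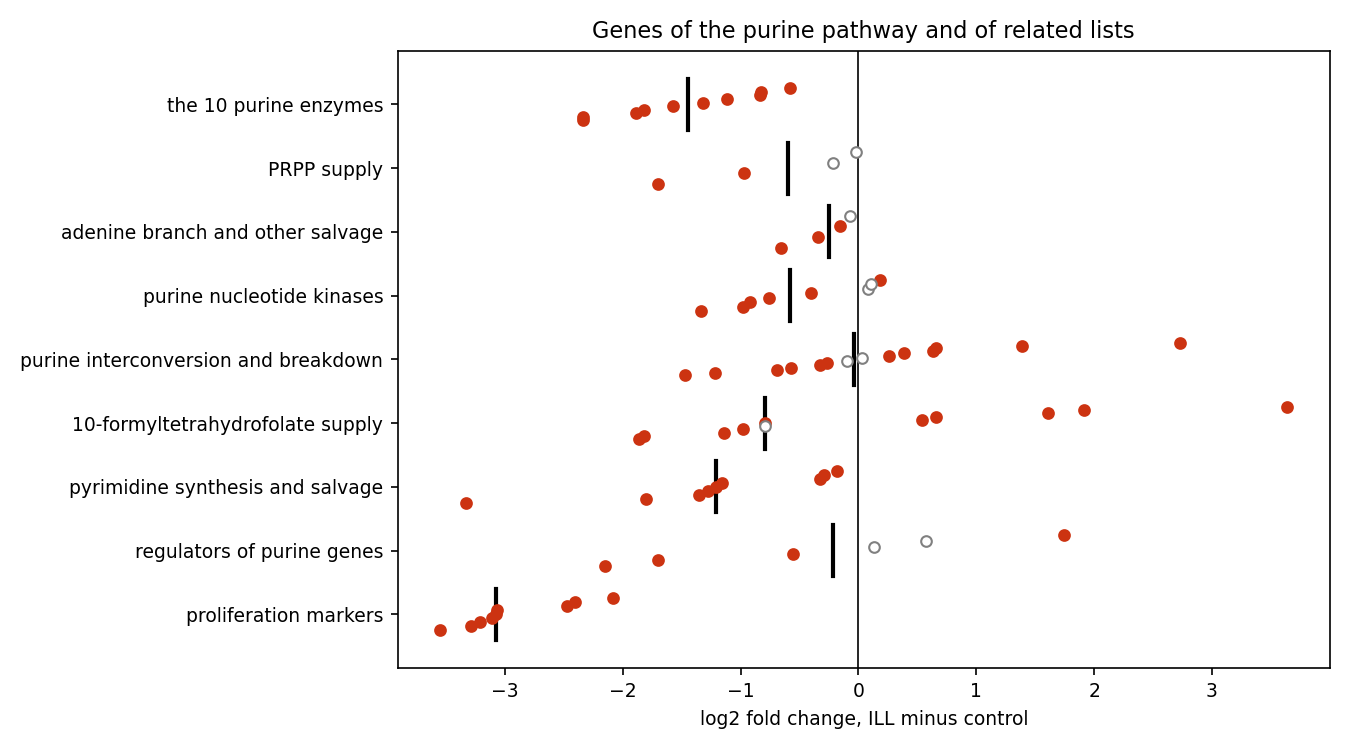
Log2 fold change, ILL minus control (horizontal axis), of each tested gene of the purine enzymes and of the related lists, filled where the adjusted p was under 0.05 and open where it was not, with a black bar at each list's median. The purine enzymes lie between -2.34 and -0.58 on 1 side of 0, as do the pyrimidine genes and the proliferation markers, while interconversion and 10-formyltetrahydrofolate genes lie on both sides.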

How the data were processed

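RNA of HCCC9810 cells exposed for 24 h to ILL (20 μM) or to vehicle was sequenced, with 3 libraries per group. Groups and replicate numbers follow the sample labels. The authors deposited a table of raw counts by gene symbol and a table of FPKM, each with a column for every library. The submitters' processing notes list GRCh38 and DESeq2, and the aligner, the counting program and the use of strand are not given in the sources used here. The deposited FPKM equal counts over a gene length and the total of the library.

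The filter filterByExpr of edgeR (version 4.0.16, under R version 4.3.3) kept 13066 of 19470 genes. After TMM scaling, groups were compared with the quasi-likelihood test and Benjamini-Hochberg adjustment over all tested genes. CPM are scaled by TMM, and FPKM are not. The biological coefficient of variation was 0.0717. With total counts from 34282764 to 37758569, the precision for genes with many reads was set mostly by the spread between replicates. For genes with few reads, counting noise weighed more. Replicate pairs differed by more than counting noise (chi-square per degree of freedom from 5.09 to 11.5). Ratios of counts within libraries were compared by exact permutation tests. The fit was tested on simulated data.

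The 10 enzymes and the other lists were chosen with earlier results of these data known, so list counts and medians are descriptions. Named were the 10 enzymes, at most 2 genes at each end of each other list among called genes without overlap between groups, and the 3 profiles nearest to PPAT and to IMPDH2. Further genes, named where a count turned on them or beside these, were chosen after their values were seen. Alternatives changed the scaling (size factors of DESeq2, or totals alone), the filter (none, or a minimum of 10 counts per library), the test (Wald test of DESeq2 1.42.0), the design (replicate numbers entered as a block, or a library removed) or the unit (limma 3.58.1 on log2 of FPKM plus 1 or 0.1, with a mean FPKM of at least 1 or, for plus 1, no filter). Positions come from GENCODE release 29 and sequences from RefSeq (GRCh38.p14). The build and annotation of the counts may differ from these. Other assays of the study were not analysed here, and some genes of the lists are not reported by name.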

Additional observations from a re-analysis of the deposited data

How the results depend on the processing

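Each of the 10 purine enzymes stayed lower with an adjusted p under 0.05 in all 15 alternatives, the highest being 3.1e-05 for IMPDH1, and 7 passed the 2-fold cutoff in each. Their median log2 fold change was -1.45 and moved by more than the spread between replicates to -1.52 with library size only, -1.51 with limma on log2(FPKM + 0.1), and -1.27 with limma on log2(FPKM + 1), with and without the FPKM filter. It was from -1.46 to -1.43 without 1 library. Library size only moved the median of all genes from -0.001 to -0.070. The difference in the PAICS to PPAT ratio, -0.01, turned to 0.04 without control replicate 3 and 0.01 without ILL replicate 2, and was from -0.05 to 0.04 without 1 library. The count of purine nucleotide kinases that rose, 1, was 0 with library size only and in the 3 limma fits, and from 0 to 1 without 1 library. That of the regulators was from 1 to 2, the second being MYCL without control replicate 2 or MAX without ILL replicate 1. Genes that did not pass the test changed sign in places: GMPR2 to -0.04 (library size only, limma plus 0.1), -0.03 (limma plus 1) and -0.01 (without control replicate 2), PRPSAP1 to 0.04 and 0.05 (without control or ILL replicate 3, from -0.08 to 0.05 over all libraries left out) and ADSS1 to 0.09 (without ILL replicate 1, from -0.31 to 0.09). The causes were not tested.

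Libraries with the same replicate number showed no shared deviation from their group means, with correlations of 0.0154, -0.024 and -0.0163. These values cannot show whether the libraries were handled in pairs. With the replicate block, 10 enzymes were lower and 7 passed the 2-fold cutoff, and of all genes 9437 were called in place of 9547. Of the genes of the purine, pyrimidine, regulator and proliferation lists, NME2 lost its call under the block (-0.74), which left 4 kinases lower in place of 5.

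All values come from 3 libraries per group of 1 cell line, at 1 time and 1 dose, and mRNA levels give neither enzyme amounts nor nucleotide pools. With 3 against 3, the permutation tests of ratios had a smallest p of 0.1.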
